A study of Mus musculus with 36 samples.

Results

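The miR-99, miR-100 and miR-125 miRNAs are made from 3 small clusters of the mouse genome, each of which pairs a miR-99 or miR-100 with a let-7 and a miR-125. The 5 members described here were chosen by name as the 5′ arms mmu-miR-99a-5p, mmu-miR-100-5p, mmu-miR-99b-5p, mmu-miR-125a-5p and mmu-miR-125b-5p, and they are 5 of the 1963 mature miRNAs listed in the tables of the series. They were measured by small RNA sequencing of ventral and lateral prostate lobes from male mice, in 12 groups of 3 libraries and 36 libraries in all. The mice carried the wild-type Elac2 gene (WT), a deletion of exon 8 made in the prostate by Cre under the probasin promoter (KO), or a homozygous A537T variant in the whole body (A537T). ELAC2 is the nuclease that cuts the 3′ end of precursor tRNAs. Each of the 3 lines was studied without TRAMP and with 1 copy of the TRAMP transgene (WT-TRAMP, KO-TRAMP and A537T-TRAMP), at 10 and at 30 weeks of age. TRAMP expresses SV40 T antigens in prostate epithelium from the probasin promoter. The mice were described as age- and littermate-matched, and all carried the strain label C56NL/6N. Within a line, the groups with and without TRAMP carried the same Elac2 alleles. Cre and the T antigens are limited to cells in which the probasin promoter is active, so the stroma, vessels and other cells of a KO lobe keep Elac2. Elac2 mRNA was not measured in these files, so the genotype of a library could not be checked against its own values, and the group of a library rests on the names of the tables that hold it.

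In general a miRNA is cut from a hairpin precursor that can give a 5p arm and a 3p arm, and the arm that is kept guides Argonaute proteins to messages that pair with its seed, bases 2 to 8 from the 5′ end. The members of the miR-99 and miR-100 family are known for repressing mTOR and other growth genes, and miR-125 and let-7 are the mammalian relatives of the worm timing miRNAs lin-4 and let-7. In prostate, members of both families have been studied in relation to androgen signalling and to tumour growth.

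The sequences show which members can share targets and which reads are hard to tell apart. They are the mature sequences of RefSeq on GRCm38.p6, matched by name for all 5 members, and capitals mark the seed.

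miR-99a-5p: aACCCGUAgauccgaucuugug

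miR-100-5p: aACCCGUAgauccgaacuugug

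miR-99b-5p: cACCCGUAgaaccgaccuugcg

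miR-125a-5p: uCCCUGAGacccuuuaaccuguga

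miR-125b-5p: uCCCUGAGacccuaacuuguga

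miR-99a-5p, miR-100-5p and miR-99b-5p share 1 seed, and miR-125a-5p and miR-125b-5p share another. miR-99a-5p and miR-100-5p are 22 bases long and differ at 1 position, U16A, counted from the 5′ end. miR-99b-5p differs from miR-99a-5p at 4 positions, A1C, U11A, U16C and U21C. miR-125a-5p, with 24 bases, and miR-125b-5p, with 22, begin with the same 13 bases. Reads with an error or an edited end at such positions could be counted for the wrong relative, and this was not tested.

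The clusters lie on chromosomes 16, 9 and 17 of GRCm38, all on the plus strand. On chromosome 16 the hairpins of Mir99a (chr16:77598936-77599000), Mirlet7c-1 (chr16:77599657-77599750) and Mir125b-2 (chr16:77646273-77646343) lie in introns of the noncoding gene Mir99ahg and span 47408 bases. On chromosome 9 those of Mir100 (chr9:41531425-41531504), Mirlet7a-2 (chr9:41536716-41536811) and Mir125b-1 (chr9:41581926-41582002) lie in introns of the noncoding transcripts 3110039I08Rik and Gm49317 and span 50578 bases. The cluster on chromosome 17 is compact, at 692 bases. It holds Mir99b (chr17:17830188-17830257) and Mirlet7e (chr17:17830352-17830444) in an intron of Spaca6 and Mir125a (chr17:17830812-17830879), which overlaps an exon of that gene. miR-125b-5p is the same from both of its hairpins, so its reads cannot be assigned to chromosome 9 or 16, whereas the 3p arms differ between them.

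Levels are given as the share of a library's miRNA reads, scaled to a total of 1000000 (CPM), which removes the scaling of each deposited table and lets all 36 libraries be compared. The libraries held between 4544257 and 21870210 reads, apart from 1 A537T library at 10 weeks (library 35) with 655455. The lowest count of a member in any library was 1046 reads, for miR-125a-5p, so for the members counting error was small beside the spread between libraries. The 8 epithelial miRNAs of the marker list (miR-200a, miR-200b, miR-200c, miR-141, miR-429, miR-205, miR-203 and miR-375) were detected in every library, with summed levels between 39450 and 102979 CPM. The skeletal muscle list of 6 miRNAs, which includes miR-1a and miR-133a, stood far apart. Its sum ran from 7343 to 306121 CPM in the 9 libraries without TRAMP at 10 weeks, against 3554 to 8197 CPM without TRAMP at 30 weeks, 2177 to 30906 CPM with TRAMP at 10 weeks and 1871 to 9364 CPM with TRAMP at 30 weeks. A large share of muscle reads lowers the CPM of everything else, so a total taken without these 6 miRNAs was used as an alternative. The smooth muscle and stroma list also varied widely. Its sum ran from 55924 CPM in a TRAMP library at 30 weeks to 393501 CPM in a library without TRAMP at 10 weeks. No total was taken without it. These are bulk samples, in which fewer cells of a type and less RNA per cell cannot be told apart.

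miR-99a-5p was the predominant member, with 30465 ± 4826 CPM (SD, n = 36 libraries), and ranked 6 among all miRNAs by mean CPM. It made up between 65.8% and 79.9% of the reads of the 5 members in a library. miR-125b-5p followed with 4605 ± 1112 CPM (rank 30), ahead of miR-100-5p with 2245 ± 502 CPM (rank 46), miR-99b-5p with 1952 ± 408 CPM (rank 48) and miR-125a-5p with 1820 CPM (1172 to 3435 CPM over libraries, rank 50). These mature RNAs differ by at most 2 bases in length, so no length correction was made, and ligation preferences of the library kit were not measured. The 5 members together took between 2.91% and 5.50% of the reads of a library.

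The group means differed least for miR-99a-5p. The highest of the 12 group means was 1.44 times the lowest for miR-99a-5p, 1.68 times for both miR-100-5p and miR-99b-5p, 1.97 times for miR-125b-5p and 2.01 times for miR-125a-5p. Over the 162 miRNAs with a mean of at least 100 CPM the median of this ratio was 2.26 and the lower quartile 1.86. Both miR-125 members lay between these 2 values, and 4 miRNAs had a smaller ratio than miR-99a-5p. The highest mean of miR-99a-5p was that of A537T at 10 weeks, with 34991 ± 4017 CPM (SD, n = 3), and the lowest that of KO-TRAMP at 30 weeks, with 24266 ± 3121 CPM. For miR-100-5p the means ran from 2967 ± 450 CPM in A537T at 10 weeks down to 1761 ± 173 CPM in WT-TRAMP at 10 weeks. miR-99b-5p ran from 2446 ± 553 CPM in KO-TRAMP at 30 weeks to 1453 ± 119 CPM in WT-TRAMP at 10 weeks. Both miR-125 members were highest in A537T at 30 weeks, with 2557 ± 108 CPM for miR-125a-5p and 6792 ± 1101 CPM for miR-125b-5p, and lowest in A537T-TRAMP at 10 weeks, with 1271 ± 43 and 3439 ± 311 CPM. When the groups were put in order, the libraries of neighbouring groups overlapped in all 11 pairs for miR-100-5p, miR-99b-5p and miR-125b-5p. They overlapped in 10 of 11 pairs for miR-99a-5p and miR-125a-5p, so the order of close groups does not go beyond the spread between libraries.

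**Figure D1:**
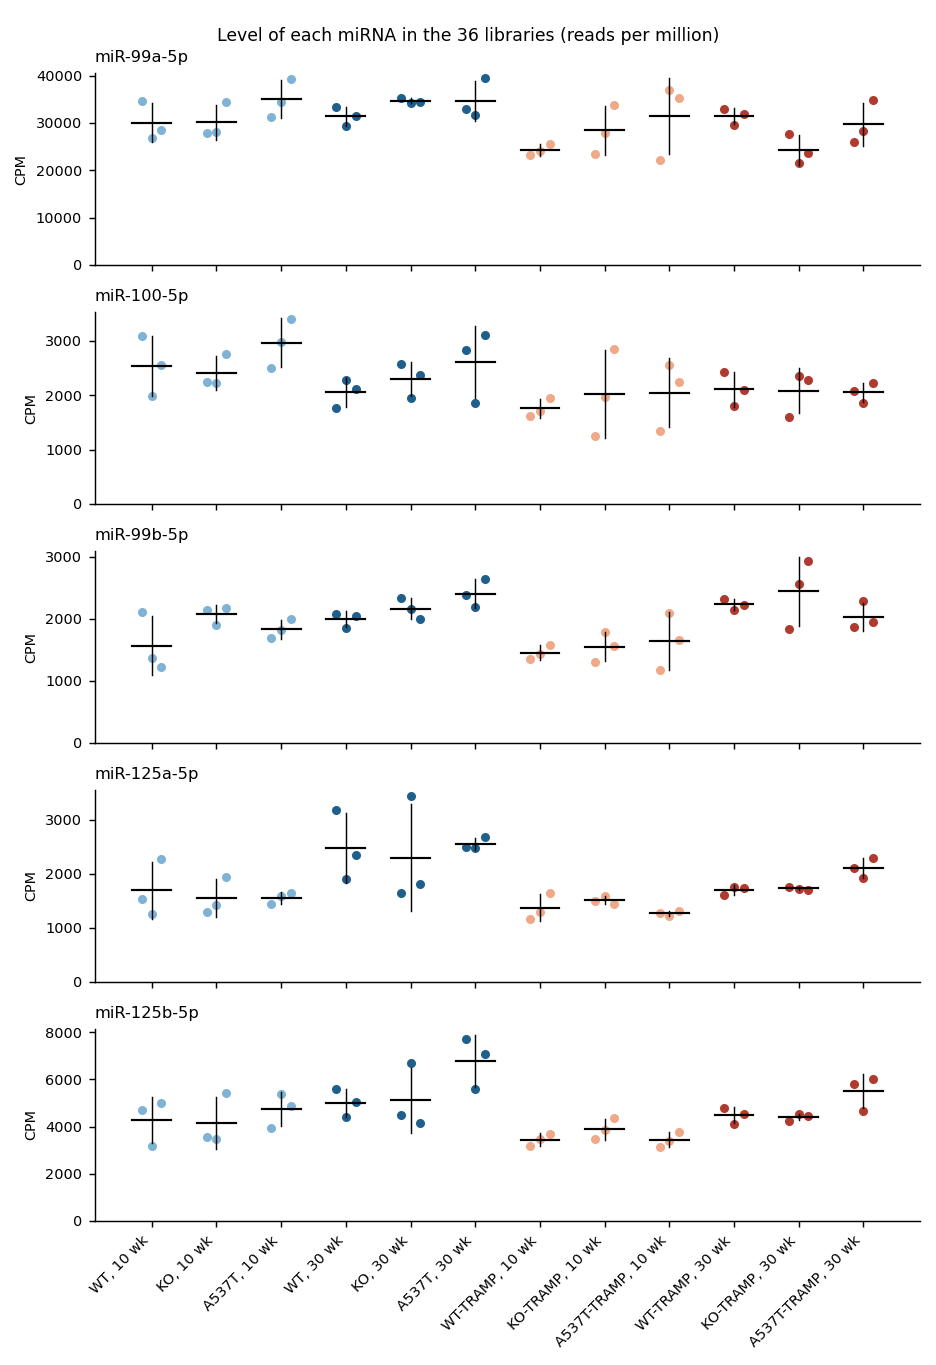
Level of each of the 5 members in CPM (vertical axes, each from 0) in the 12 groups (horizontal axis), where a point is 1 library, a horizontal bar the mean of 3 and a vertical line the SD. miR-99a-5p lies between 21469 and 39507 CPM in every library, and miR-125a-5p and miR-125b-5p have their highest mean in A537T at 30 weeks.

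The first comparison asked whether the members differed between prostates with and without TRAMP at 10 weeks, averaged over the 3 lines. All 5 were measured lower with TRAMP, and 2 of them, miR-100-5p and miR-125b-5p, passed the test. miR-100-5p, from the chromosome 9 cluster, had a lowest, median and highest level of 1245, 1953 and 2854 CPM in the 9 TRAMP libraries and of 1980, 2550 and 3407 CPM in the 9 others. The ranges overlapped, with the TRAMP libraries lying lower, and the log2 fold change was -0.47 ± 0.15 (SE, limma adjusted p = 0.00658). miR-125b-5p ran from 3145 through a median of 3471 to 4343 CPM with TRAMP and from 3159 through 4712 to 5420 CPM without. The TRAMP libraries lay in the lower part of the range of the others, and the log2 fold change was -0.27 ± 0.11 (adjusted p = 0.0347). This call was lost when any 1 of libraries 1, 4, 7, 28, 30, 33, 35 and 36 was left out. For miR-99a-5p the values were 22180, 25644 and 36993 CPM with TRAMP against 26846, 31251 and 39237 CPM without (log2 fold change -0.19 ± 0.10, adjusted p = 0.0841). miR-99b-5p gave -0.23 ± 0.11 (adjusted p = 0.0669) and miR-125a-5p -0.19 ± 0.13 (adjusted p = 0.179), neither of which passed.

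These calls were common in this comparison, since 39.9% of the 514 tested miRNAs were called lower and 25.5% higher, and the median log2 fold change over all miRNAs was -0.28, close to the median of -0.23 over the 5 members. They also depended on the scaling. With DESeq2 size factors, under which the median of all miRNAs was -0.16, none of the 5 was called, and miR-100-5p then stood at -0.29 and miR-125b-5p at -0.09. With the total taken without the muscle miRNAs all 5 were called lower, miR-100-5p at -0.63 and miR-99a-5p at -0.35. The median of all miRNAs was then -0.41, and 344 of the 514 were called, 110 of them higher. miR-99a-5p, miR-99b-5p (-0.39) and miR-125a-5p (-0.35) thus fell by less than the median. Endothelial miR-126a (both arms summed) was also lower with TRAMP at this age, between 4932 and 11063 CPM against 12421 and 18603 CPM without overlap, and the smooth muscle and stroma list had a median of 108638 against 296198 CPM. The red cell list ran from 137 to 615 CPM with TRAMP and from 1051 to 1929 CPM without, the fibroblast list had medians of 6460 and 11020 CPM, and the epithelial list moved the other way, with medians of 81206 and 55879 CPM. Their part in the result was not tested.

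At 30 weeks the pair called lower with TRAMP was a different one, miR-99a-5p and miR-125a-5p. miR-99a-5p had a lowest, median and highest level of 21469, 28285 and 34810 CPM with TRAMP and of 29416, 33401 and 39507 CPM without. The 2 ranges overlapped, and the log2 fold change was -0.25 ± 0.10 (adjusted p = 0.0362). miR-125a-5p, from the compact chromosome 17 cluster, had 1601, 1750 and 2292 CPM with TRAMP and 1655, 2484 and 3435 CPM without. Its TRAMP libraries all lay below the median of the others, with a log2 fold change of -0.38 ± 0.13 (adjusted p = 0.0177). The other 3 members did not pass, with -0.21 ± 0.11 for miR-125b-5p (adjusted p = 0.125), -0.14 ± 0.15 for miR-100-5p (adjusted p = 0.46) and 0.02 ± 0.11 for miR-99b-5p (adjusted p = 0.872). miR-125b-5p was called under TMM scaling (-0.33, adjusted p = 0.0459), with edgeR (-0.34, adjusted p = 0.0337) and with DESeq2 (-0.38, adjusted p = 0.0356). Of all tested miRNAs 16.3% were called lower and 28.8% higher at this age, and the median over all was 0.07. The call of miR-99a-5p was lost without any 1 of libraries 11, 13, 14, 17, 18, 19, 21, 22, 24 and 27, with values then between -0.25 and -0.22, and that of miR-125a-5p without library 23 of the KO group (-0.27, adjusted p = 0.0517). The leukocyte list of 5 miRNAs, among them miR-142a and miR-155, ran from 731 to 1696 CPM with TRAMP and from 234 to 634 CPM without, with no overlap. The smooth muscle and stroma list had medians of 134398 and 238223 CPM, and the red cell list medians of 413 and 827 CPM. Their part in the result was not tested.

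Whether the TRAMP difference itself changed between 10 and 30 weeks was tested as an interaction. No member was called, against 37.2% of all miRNAs. The largest member values were 0.33 ± 0.21 for miR-100-5p (adjusted p = 0.214) and 0.26 ± 0.16 for miR-99b-5p (adjusted p = 0.197), so by this fit the different calls at the 2 ages are not shown to be a difference between the ages. With the total taken without muscle miRNAs the interaction of miR-99b-5p was 0.41 and was called (adjusted p = 0.0235). The median interaction over all tested miRNAs was then 0.42, and 216 were called, 186 of them higher. The value of miR-99b-5p thus lay close to the median of all miRNAs. With DESeq2 size factors its interaction was -0.05, and the median over all miRNAs was 0.03.

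Age was the second axis of the design. Without TRAMP, both miR-125 members rose from 10 to 30 weeks, averaged over the 3 lines. miR-125a-5p had a lowest, median and highest level of 1258, 1536 and 2284 CPM at 10 weeks and of 1655, 2484 and 3435 CPM at 30 weeks. This is a 1.51-fold increase, with a log2 fold change of 0.60 ± 0.13 (adjusted p = 0.000506). miR-125b-5p had 3159, 4712 and 5420 CPM at 10 weeks and 4138, 5581 and 7732 CPM at 30 weeks, a log2 fold change of 0.35 ± 0.11 (adjusted p = 0.0144). The ranges of both overlapped between the ages. The members of the other seed gave 0.28 ± 0.11 for miR-99b-5p (adjusted p = 0.0522), 0.09 ± 0.10 for miR-99a-5p (adjusted p = 0.504) and -0.19 ± 0.15 for miR-100-5p (adjusted p = 0.326). miR-99b-5p lay at the threshold and passed in 6 of 9 alternatives, among them DESeq2 size factors (0.46, adjusted p = 0.00139) and TMM scaling (0.28, adjusted p = 0.0414). Over all tested miRNAs 12.8% were called higher and 20.6% lower with age. With the total taken without muscle miRNAs, which were abundant in these libraries at 10 weeks, miR-125a-5p stayed called at 0.44 and miR-125b-5p was not called at 0.20.

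With TRAMP, 3 members rose with age. miR-99b-5p had 1174, 1560 and 2103 CPM at 10 weeks and 1845, 2231 and 2934 CPM at 30 weeks, which is a 1.45-fold increase (log2 fold change 0.53 ± 0.11, adjusted p = 0.000808). miR-125a-5p had 1172, 1308 and 1654 CPM at 10 weeks and 1601, 1750 and 2292 CPM at 30 weeks, and rose by 0.42 ± 0.13 on the log2 scale (adjusted p = 0.0171). miR-125b-5p had 3145, 3471 and 4343 CPM at 10 weeks and 4128, 4527 and 6013 CPM at 30 weeks, and rose by 0.41 ± 0.11 (adjusted p = 0.00777). For each of these 3 members 1 library at 10 weeks lay above the lowest library at 30 weeks, and the other 8 lay below it. miR-99a-5p and miR-100-5p gave 0.03 ± 0.10 (adjusted p = 0.843) and 0.14 ± 0.15 (adjusted p = 0.511), and the sign of these 2 turned under TMM scaling (-0.13 and -0.03). Here 20.2% of all miRNAs were called higher and 7.2% lower, and the median over all was 0.11. Under TMM scaling and under DESeq2 size factors only miR-99b-5p remained called, with miR-125a-5p and miR-125b-5p at 0.25 each under TMM scaling, and the median over all miRNAs was then -0.03 and 0.00. The leukocyte list was also higher at the later age in TRAMP prostates, with 731 to 1696 CPM against 275 to 731 CPM, and its part in the result was not tested. The TRAMP and age comparisons share libraries, since each group of 9 enters 1 comparison of each kind.

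**Figure D2:**
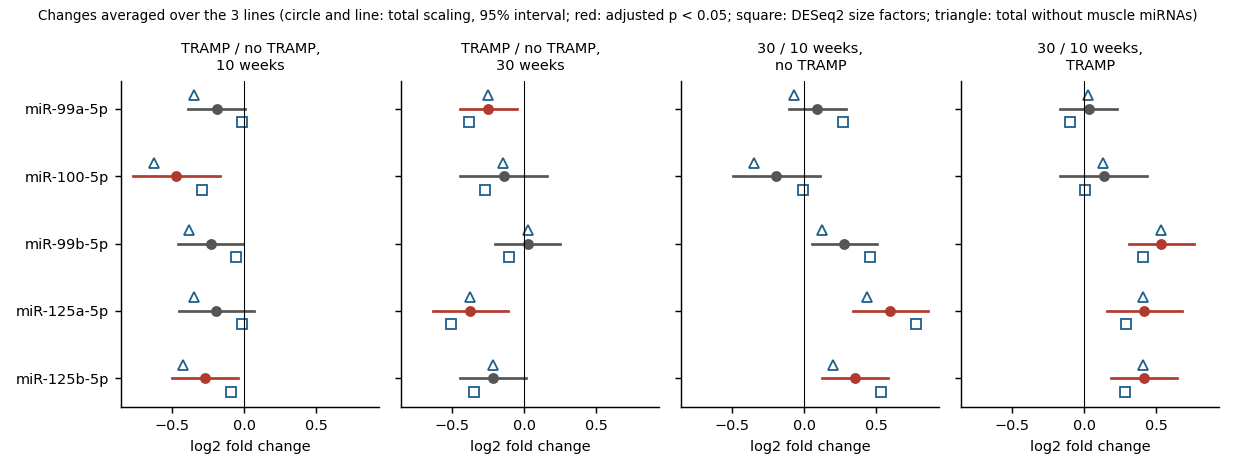
Log2 fold change of each member (horizontal axes) for TRAMP over no TRAMP at each age and for 30 over 10 weeks in each background, averaged over the 3 lines. Circles with lines are the estimates with 95% intervals, in red where the adjusted p was below 0.05, squares the estimates with DESeq2 size factors and triangles those with a total without muscle miRNAs, so miR-99a-5p at 10 weeks moves from -0.19 to -0.35 with the triangle and to about 0 with the square.

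Within single lines the same comparisons rest on 3 against 3 libraries. Of 30 TRAMP values, which are 5 members in 6 comparisons, 26 were negative and 1 was called. This was miR-99a-5p in the KO line at 30 weeks, with 27633, 21469 and 23695 CPM in KO-TRAMP against 35293, 34199 and 34514 CPM in KO. The 2 groups did not overlap, as for 9.53% of all miRNAs in this direction, and the log2 fold change was -0.52 ± 0.17 (adjusted p = 0.015). Under TMM scaling it was -0.84 and with DESeq2 size factors -0.83, both called. Without library 17 it was -0.44 and was not called. With the total taken without muscle miRNAs the number of members called at 10 weeks was 4 in WT, 1 in KO and 2 in A537T, where it had been 0 in each. The values of both miR-125 members were negative in all 6 comparisons, from -0.51 to -0.02 for miR-125a-5p and from -0.46 to -0.07 for miR-125b-5p. With the full total, the share of all miRNAs called lower at 10 weeks was 14.2% in WT, 28.4% in KO and 22.4% in A537T. At 30 weeks it was 14.8%, 8.56% and 2.33%.

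Of the 30 single-line age values 24 were positive and 5 were called. miR-99b-5p, miR-125a-5p and miR-125b-5p were positive in all 6 comparisons, with ranges of 0.06 to 0.64, 0.20 to 0.73 and 0.19 to 0.67. miR-99b-5p was called in WT-TRAMP, where its levels were 1348, 1430 and 1583 CPM at 10 weeks and 2326, 2149 and 2231 CPM at 30 weeks (0.62 ± 0.19, adjusted p = 0.0414). It was called again in KO-TRAMP, with 1312, 1790 and 1560 CPM at 10 weeks and 1845, 2558 and 2934 CPM at 30 weeks (0.64 ± 0.19, adjusted p = 0.0182). miR-125a-5p was called in A537T, with 1437, 1596 and 1651 CPM against 2506, 2484 and 2680 CPM (0.71 ± 0.22, adjusted p = 0.0271). In A537T-TRAMP it had 1282, 1224 and 1308 CPM against 2117, 1915 and 2292 CPM (0.73 ± 0.22, adjusted p = 0.0494), and miR-125b-5p had 3145, 3407 and 3765 CPM against 5817, 4661 and 6013 CPM (0.67 ± 0.19, adjusted p = 0.0465). In all of these the 2 ages did not overlap, which held in this direction for 17.9% of all miRNAs in WT-TRAMP, 19.3% in KO-TRAMP, 12.8% in A537T and 19.5% in A537T-TRAMP. The call of miR-125a-5p in A537T was lost without any 1 of its 6 libraries (25, 26, 27, 34, 35 and 36), that of miR-99b-5p in WT-TRAMP without any 1 of libraries 1, 2, 3, 10, 11, 12, 25 and 31 and in KO-TRAMP without library 7, 17 or 18. The share of all miRNAs called higher with age was 4.47% in WT, 1.95% in KO, 4.86% in A537T, 3.89% in WT-TRAMP, 17.9% in KO-TRAMP and 5.06% in A537T-TRAMP. The calls in A537T-TRAMP lie close to the threshold: with 1 of the 36 libraries left out, miR-125a-5p passed in 7 and miR-125b-5p in 19 of 36 fits. Neither passed under TMM scaling (0.51 and 0.45), with DESeq2 size factors, edgeR or DESeq2, without a filter or without a variance trend. miR-99b-5p in KO-TRAMP fell to 0.33 under TMM scaling, 0.40 with DESeq2 size factors, 0.34 with edgeR and 0.42 with DESeq2, and was called under none of these. miR-125a-5p in A537T was not called under TMM scaling (adjusted p = 0.0711), with the total without muscle miRNAs (0.59, adjusted p = 0.0917), without a filter or with edgeR, and miR-99b-5p in WT-TRAMP was not called without a filter or without a variance trend. In KO, where no member was called with age, DESeq2 size factors gave 3 calls and DESeq2 4. Over all tested miRNAs DESeq2 size factors called 122 in KO, 66 of them higher, and DESeq2 called 171. The limma fit with the full total had called 76, 10 of them higher. No test of a difference between lines was made here.

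The study was built to compare the ELAC2 mutants with their controls, and in none of the 8 such comparisons was a member called. The 40 member values ran from -0.38 to 0.44 on the log2 scale with SEs between 0.17 and 0.25, the smallest adjusted p was 0.191, and 3 had an unadjusted p below the threshold of 0.05. Over all 40 values the lowest end of a 95% interval was -0.73 and the highest 0.84, and each single interval was narrower than this span. With 3 libraries per group, a difference inside a member's own interval is not excluded. edgeR and DESeq2 called none of them either. Over all miRNAs the share called was 3.89% for KO vs WT and 0.195% for A537T vs WT at 10 weeks, and 0.584% and 0% at 30 weeks. In the TRAMP background it was 0% for either mutant at 10 weeks, 6.23% for KO-TRAMP at 30 weeks and 0% for A537T-TRAMP at that age. The KO and A537T comparisons of 1 background and age share their 3 controls.

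The highest of the 40 values was that of miR-99b-5p in KO at 10 weeks, with 2145, 1909 and 2172 CPM against 2107, 1375 and 1231 CPM in WT (0.44 ± 0.19, adjusted p = 0.197). One WT library, number 28, lay among the KO values, and without it the value was 0.67 and was called (adjusted p = 0.0189). The skeletal muscle miRNAs took between 9.71% and 30.6% of the reads in these WT libraries and between 0.734% and 6.49% in the KO libraries, and the median over all miRNAs was 0.18. With the total taken without them that median was -0.04 and miR-99b-5p stood at 0.15 (adjusted p = 0.672). The lowest was that of miR-99a-5p in KO-TRAMP at 30 weeks, with 27633, 21469 and 23695 CPM against 33001, 29627 and 31850 CPM in WT-TRAMP (-0.38 ± 0.17, adjusted p = 0.191). The groups did not overlap there, nor for miR-99a-5p in KO vs WT at 30 weeks (0.14 ± 0.17), miR-99b-5p in A537T vs WT at 30 weeks (0.27 ± 0.19) and miR-125a-5p in A537T-TRAMP vs WT-TRAMP at 30 weeks (0.31 ± 0.22). These 4 of 40 compare with 26.5% of all miRNAs not overlapping in KO and 6.81% in A537T at 10 weeks, 17.5% and 11.5% at 30 weeks, 9.73% and 14.2% with TRAMP at 10 weeks, and 25.5% and 20% with TRAMP at 30 weeks.

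**Figure D3:**
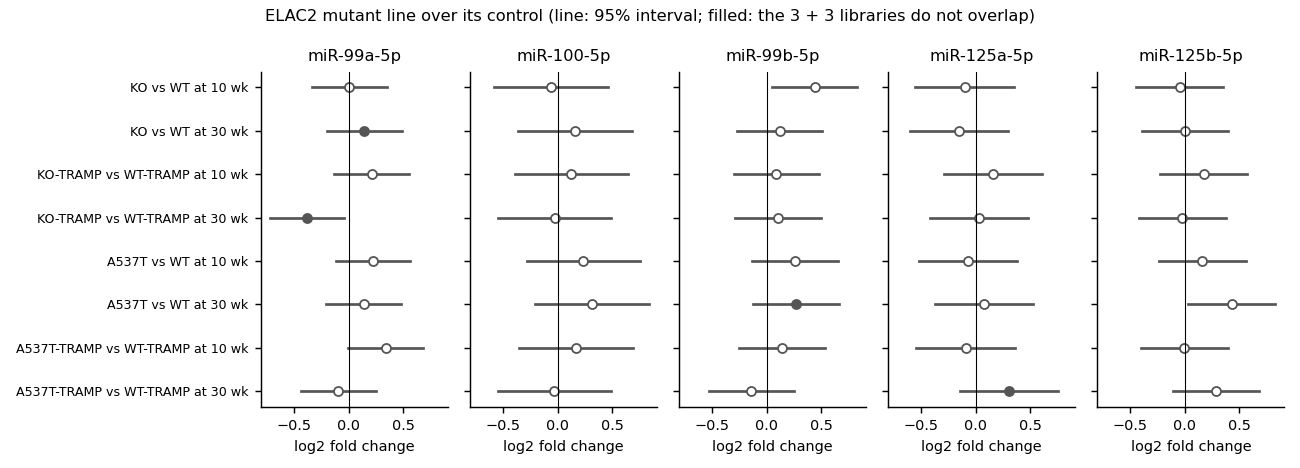
Log2 fold change of mutant over control (horizontal axes) for each member in the 8 comparisons of an ELAC2 mutant line with its control, with 95% intervals and filled points where the 3 libraries of each group did not overlap. No value passed the test, and they lie between -0.38 and 0.44.

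The neighbours of the members in the clusters show whether a whole cluster moved together. The list holds 12 miRNAs, the 3 let-7 5p arms and 9 other arms of the same hairpins, of which 10 were abundant enough to test, as miR-100-3p and let-7a-2-3p had mean levels under 1 CPM. The 3 let-7 sequences are shown because they share 1 seed, again in capitals, and differ from one another in few bases.

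let-7c-5p: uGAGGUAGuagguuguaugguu

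let-7a-5p: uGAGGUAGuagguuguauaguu

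let-7e-5p: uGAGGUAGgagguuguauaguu

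With TRAMP at 10 weeks 2 of the 10 were called higher and 6 lower, at 30 weeks 0 and 4. Over all tested miRNAs 25.5% were called higher and 39.9% lower at 10 weeks, and 28.8% and 16.3% at 30 weeks. In the chromosome 16 cluster let-7c-5p rose with TRAMP at 10 weeks while its neighbour miR-99a-5p did not. let-7c-5p had a lowest, median and highest level of 28959, 35998 and 55587 CPM with TRAMP against 19753, 21367 and 23053 CPM without, and these ranges did not overlap (log2 fold change 0.81 ± 0.11, adjusted p = 7.98e-07). The ratio of let-7c-5p to miR-99a-5p, which no scaling affects, had a median of 1.43 with TRAMP and 0.71 without, and 7 of 9 TRAMP libraries lay above the highest other library. let-7c-5p is also made from Mirlet7c-2 on chromosome 15, so its reads are not those of this cluster alone. The 3p arm made only from the hairpin in the cluster, let-7c-1-3p, gave 0.02 ± 0.12 (adjusted p = 0.913) at a mean of 7.61 CPM. It had as few as 3 reads in a library, so its counting error was larger than that of the members.

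let-7a-5p, from the chromosome 9 cluster but also made from Mirlet7a-1 on chromosome 13, rose alike at 10 weeks (0.57 ± 0.14, adjusted p = 0.000809), with 8936, 12870 and 16154 CPM with TRAMP and 6820, 8036 and 11446 CPM without. In the same comparison miR-100-5p fell, and so did the 3p arms that separate the 2 sources of miR-125b. miR-125b-1-3p, from chromosome 9, changed by -0.58 ± 0.14 (adjusted p = 0.000844) and miR-125b-2-3p, from chromosome 16, by -0.39 ± 0.13 (adjusted p = 0.00886), the latter not called with DESeq2 size factors (-0.22, adjusted p = 0.0501). miR-125b-2-3p had more reads than miR-125b-1-3p in all libraries, with ratios between 1.44 and 3.43 and a median of 2.27. miR-99a-3p fell by 0.88 on the log2 scale (adjusted p = 0.000361), with a median of 9.51 CPM without TRAMP. It is a rare arm with as few as 4 reads in a library, and miR-99a-5p had between 2012 and 9220 times as many reads.

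In the compact cluster on chromosome 17, where each mature sequence has a single source, the 3 miRNAs did not keep a fixed ratio. let-7e-5p had 494, 597 and 682 CPM with TRAMP at 10 weeks against 610, 822 and 907 CPM without (-0.40 ± 0.09, adjusted p = 0.000503), and with DESeq2 size factors it was not called (-0.22, adjusted p = 0.077). At 30 weeks it had 522, 692 and 790 CPM with TRAMP and 915, 1025 and 1133 CPM without, and these ranges did not overlap (-0.64 ± 0.09, adjusted p = 2.07e-06). miR-99b-5p, whose hairpin lies next to it, had 1845, 2231 and 2934 CPM with TRAMP and 1848, 2153 and 2649 CPM without at 30 weeks, with almost the same range. The ratio of miR-99b-5p to let-7e-5p thus had a median of 3.31 with TRAMP and 2.03 without, and 8 of the 9 TRAMP libraries lay above the highest other library. At 10 weeks the medians were 2.43 and 2.28. The rarer arms let-7e-3p and miR-125a-3p were called lower with TRAMP at both ages, at -0.68 and -0.43 at 10 weeks and -0.47 and -0.42 at 30 weeks, and miR-99b-3p was called at neither (-0.05 and -0.14). The call of miR-125a-3p at 10 weeks was lost with DESeq2 size factors (-0.27, adjusted p = 0.064) and with DESeq2. Both let-7e-3p and miR-125a-3p had as few as 10 reads in a library.

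**Figure D4:**
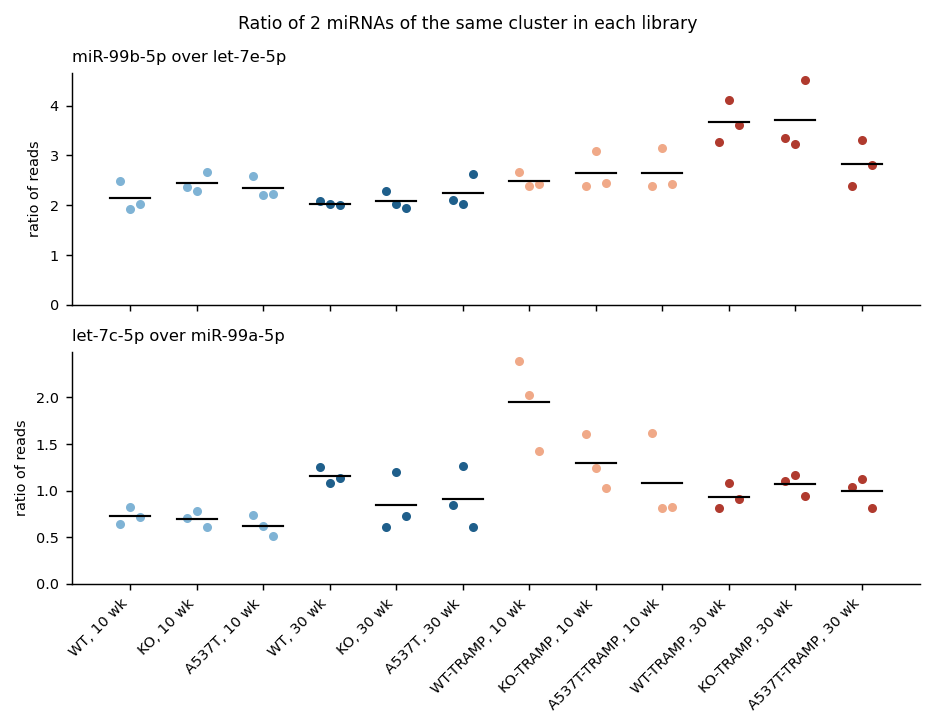
Ratio of reads (vertical axes, from 0) of miR-99b-5p to let-7e-5p and of let-7c-5p to miR-99a-5p in each library of the 12 groups, where a bar is the mean of 3 libraries. The upper ratio is highest with TRAMP at 30 weeks (median 3.31) and the lower ratio with TRAMP at 10 weeks (median 1.43).

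With age and without TRAMP 4 of the 10 neighbours were called higher and 0 lower, against 12.8% and 20.6% of all tested miRNAs. All 3 let-7 5p arms rose, by 0.55 ± 0.11 for let-7c-5p (adjusted p = 0.000354), 0.53 ± 0.14 for let-7a-5p (adjusted p = 0.00298) and 0.40 ± 0.09 for let-7e-5p (adjusted p = 0.00129), and miR-99b-3p rose by 0.38 ± 0.12 (adjusted p = 0.0144). With the total taken without muscle miRNAs miR-99b-3p was not called (0.23, adjusted p = 0.131). The arms opposite the rising miR-125 members gave other values: 0.11 ± 0.13 for miR-125a-3p, -0.27 ± 0.14 for miR-125b-1-3p and -0.15 ± 0.13 for miR-125b-2-3p, none of them called. The ratio of miR-125a-5p to miR-125a-3p had a median of 95.7 at 10 weeks and 136 at 30 weeks without TRAMP. With TRAMP 0 neighbours were called higher with age and 1 lower, let-7c-5p (-0.42 ± 0.11, adjusted p = 0.00731). Over all tested miRNAs 20.2% were called higher and 7.2% lower in that comparison.

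**Figure D5:**
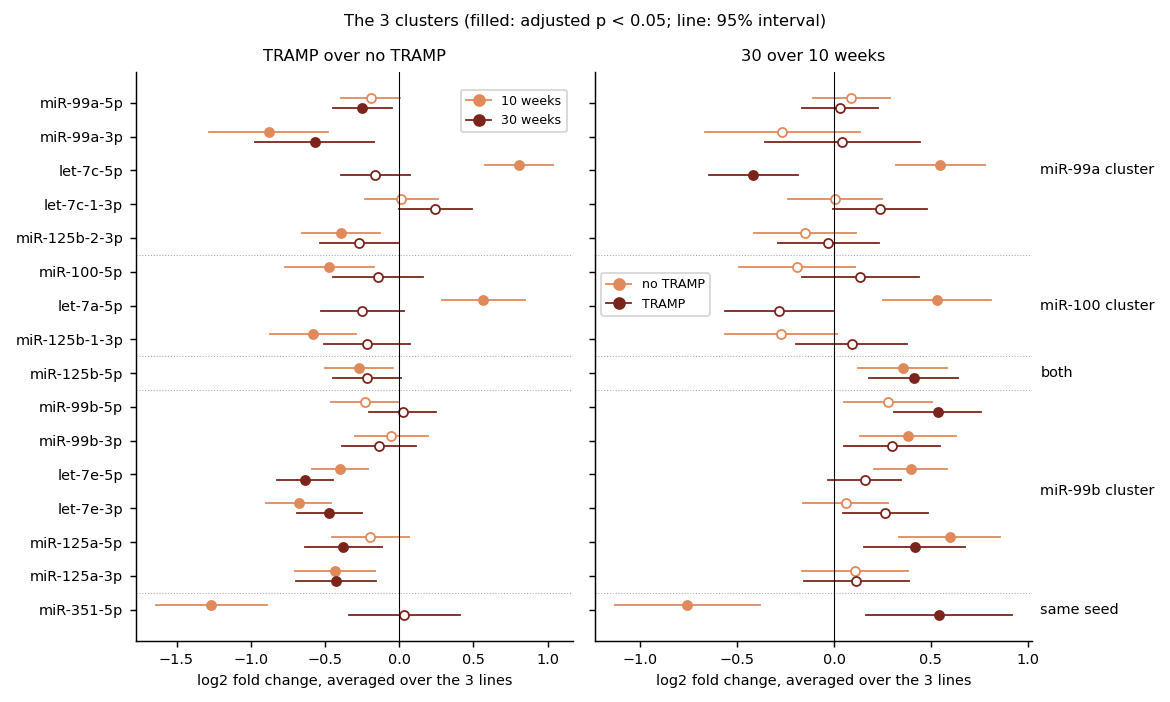
Log2 fold change averaged over the 3 lines (horizontal axes) for the members and their neighbours grouped by cluster, with TRAMP over no TRAMP on the left and 30 over 10 weeks on the right. Lines are 95% intervals and filled points passed the test; let-7c-5p and let-7a-5p lie to the right of 0 with TRAMP at 10 weeks, where the other called miRNAs of the figure lie to the left.

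Outside the clusters, 3 miRNAs carry the miR-125 seed, and of these only miR-351-5p was expressed at a testable level. miR-6367 had 1 read in 1 library and miR-6394 none. miR-351-5p, from chromosome X, is shown because it begins with the same 8 bases as miR-125a-5p, after which the next base differs.

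miR-351-5p: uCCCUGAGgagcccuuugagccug

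It was much rarer than miR-125b-5p, with between 6.38 and 47.6 CPM. With TRAMP at 10 weeks it had a lowest, median and highest level of 6.38, 12.1 and 18.1 CPM against 21.6, 30.4 and 47.6 CPM without. The ranges did not overlap, and the log2 fold change was -1.26 ± 0.18 (adjusted p = 1.5e-06), where miR-125b-5p fell by 0.27. miR-125b-5p had a median of 142 times as many reads as miR-351-5p without TRAMP and 262 times with TRAMP at 10 weeks. At 30 weeks the TRAMP difference of miR-351-5p was 0.04 ± 0.18 (adjusted p = 0.889). With age it fell without TRAMP (-0.76 ± 0.18, adjusted p = 0.00176), while miR-125a-5p and miR-125b-5p rose. With TRAMP it rose with age (0.54 ± 0.18, adjusted p = 0.0292), as both miR-125 members did, and that call was lost in 5 of 9 alternatives, among them TMM scaling (0.39), and without any 1 of libraries 4, 7, 10, 13, 17 and 18.

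Across the 12 group means of log2(CPM + 1), members of the same cluster were not always the closest to each other. The let-7 neighbours and the other arms of the clusters were left out of this comparison. Pearson's r was 0.91 between miR-125a-5p and miR-125b-5p, which share a seed and the first 13 bases but no hairpin, and 0.66 between miR-125a-5p and miR-99b-5p, which share the compact cluster. It was 0.68 between miR-99a-5p and miR-100-5p, and 0.56 between miR-99a-5p and miR-125b-5p. The next values are for the 153 miRNAs of at least 100 CPM outside the members and their cluster neighbours. Among these the most similar to miR-100-5p were miR-126a-3p (0.90), miR-139-5p (0.87) and miR-126a-5p (0.86), and miR-126a is a known endothelial miRNA. The most similar to miR-125a-5p were miR-29b-3p (0.91), miR-29a-3p (0.86) and miR-30e-3p (0.80), and to miR-125b-5p miR-29b-3p (0.78), miR-30c-5p (0.76) and miR-150-5p (0.74). miR-99a-5p was closest to miR-145a-3p (0.71), miR-30a-3p (0.67) and miR-328-3p (0.67), and miR-99b-5p to miR-150-5p (0.75), miR-29b-3p (0.74) and miR-375-3p (0.73). These values describe 12 points that share libraries and scaling, and no test was made.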

How the data were processed

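The authors merged read pairs and removed adapters with BBMerge, counted reads per mature miRNA with mirDeep2 against GRCm38 and miRBase, and summed identical sequences. They deposited 8 tables of DESeq2-normalised counts, a signal equal to the reads divided by a size factor, each with 6 libraries. Their tables of shrunken log2 fold changes with s-values and the 2 lists of merged names stayed unused. Columns carry library numbers: one present in the KO and also in the mutant table of an age and background was read as a WT control of both, and any other as the line its table is named for, with the table named mutant read as A537T. Columns matching no group numbered 0.

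Recovering the read that underlies each step of a column gave whole reads for 100% of values, within 0.001, and the 12 control columns held in 2 tables were identical in both. CPM was taken from column totals (655455 to 21870210 reads). limma 3.58.1 with a variance trend was fitted in R 4.3.3 to log2(CPM + 1) of the 36 libraries as 12 groups, for the 514 miRNAs with a mean of at least 1 CPM, which include all 5 members. Tests were two-sided, with Benjamini-Hochberg adjustment over all tested miRNAs within each of 25 comparisons and a threshold of 0.05, and fold changes are on the log2(CPM + 1) scale, which understates changes of low miRNAs. The labels give separate replicates but not whether each is 1 mouse or a pool, so p-values measure the spread between these libraries. The fit was tested on simulated reads, in which only miRNAs of lower level than the members were changed. No shift of tissue make-up was simulated, so this test does not cover the effect of scaling on the members.

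Alternatives were TMM scaling, DESeq2 size factors, a total without 6 skeletal muscle miRNAs, no filter, no variance trend, a pseudocount of 10, a filter at a mean of 10 CPM, edgeR 4.0.16 and DESeq2 1.42.0 on the recovered reads, a fit of the 6 deposited columns of a mutant comparison, and leaving out each library. The members, the neighbours, the marker lists and the tests were chosen with earlier results of these data known. Named were the 5 members, the 12 cluster neighbours and miRNAs with a member's seed. Per member, the 3 miRNAs of at least 100 CPM with the most similar group means were also named, with members and neighbours left out. Hairpins are from GENCODE M21.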

Additional observations from a re-analysis of the deposited data

Results flagged for a closer look

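For 3 of the miRNAs described beside the members, the TRAMP difference at 30 weeks departed from that at 10 weeks by the interaction test over the 3 lines. let-7c-5p gave an interaction of -0.97 ± 0.16 on the log2 scale (limma adjusted p = 8.26e-05), with TRAMP differences of 0.81 at 10 weeks and -0.16 at 30 weeks. let-7a-5p gave -0.82 ± 0.19 (adjusted p = 0.00224), with 0.57 at 10 weeks and -0.25 at 30 weeks. miR-351-5p gave 1.30 ± 0.26 (adjusted p = 0.000386), with -1.26 at 10 weeks and 0.04 at 30 weeks. All 3 kept their direction and their call under the 9 alternatives and without each of the 36 libraries.

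The values of miR-99a-5p in KO against its control at 30 weeks had opposite signs without and with TRAMP. This pair was flagged because the libraries did not overlap in either comparison. miR-99a-5p was higher in all 3 KO libraries than in all 3 WT libraries (0.14), as were 3.89% of all miRNAs. It was lower in all 3 KO-TRAMP libraries than in all 3 WT-TRAMP libraries (-0.38), as were 7.59% of all miRNAs. The difference between the values was 0.53 on the log2 scale, and neither value was called. The difference was not tested.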

How the results depend on the processing

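No paired analysis was possible because the columns carry no replicate number. With TRAMP at 10 weeks the number of members called, 2, became 1 under TMM scaling, without a filter and with edgeR, 0 with DESeq2 size factors and with DESeq2's test, and 5 with the total without muscle miRNAs, and lay between 1 and 4 when 1 library was left out. It was 1 without libraries 1, 4, 7, 28, 33, 35 or 36 and 4 without library 5. At 30 weeks it became 1 without a filter and without a variance trend and 3 under TMM scaling, edgeR and DESeq2, where miR-125b-5p was added, and with a library left out it lay between 1 and 2, being 1 without libraries 11, 13, 14, 17, 18, 19, 21, 22, 23, 24 or 27. For age without TRAMP it became 1 with the total without muscle miRNAs and 3 in the 6 alternatives that added miR-99b-5p. For age with TRAMP, 3 became 1 under TMM scaling, DESeq2 size factors, edgeR and DESeq2. For the interaction it became 1, miR-99b-5p, with the total without muscle miRNAs, and for KO vs WT at 10 weeks it lay between 0 and 1, the latter without library 28. In the other 7 mutant comparisons it was 0 throughout the alternatives.

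Among the member values averaged over the lines, those whose sign turned had not been called. Under TMM scaling, DESeq2 size factors, edgeR and DESeq2 in this order, miR-99b-5p with TRAMP at 30 weeks gave -0.0871, -0.108, -0.0935 and -0.12 (-0.0238 to 0.0876 with a library left out), miR-99a-5p for age with TRAMP -0.132, -0.0967, -0.138 and -0.104 (-0.0468 to 0.0762), and the interaction of miR-125b-5p -0.11, -0.252, -0.117 and -0.256 (-0.0114 to 0.128). miR-100-5p for age with TRAMP gave -0.0277 under TMM scaling, -0.0646 with edgeR and -0.0201 with DESeq2. The interaction of miR-99b-5p gave -0.053 with DESeq2 size factors and -0.0800 with DESeq2, and that of miR-100-5p -0.0148 with DESeq2. With the total without muscle miRNAs, miR-99a-5p gave -0.0685 for age without TRAMP and 0.095 for the interaction. The cause of these changes was not tested.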
